A study of Mus musculus with 12 samples.

Results

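Messenger RNA of 33 enzyme genes of sphingolipid and ganglioside metabolism was examined in the colon of 12 mice. The 33 genes were chosen by name from a table of 18514 genes, and the set was selected on the level of 1 member, St3gal5, which differed between mice given azoxymethane and dextran sulfate sodium with and without swimming. Of the 33, 32 passed the filter on low counts that left 15484 genes for testing, and Enpp7 did not. The other 32 genes were listed for their place in the pathway. Because the comparison of Model_Swim with Model chose the set, its values are given below as a description without a test.

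The mice were male C57BL/6 animals, 4 weeks old when purchased, and fell into 4 groups of 3 with 1 library each. Ctrl mice received neither the carcinogen nor the irritant and did not swim. Ctrl_Swim mice swam for up to 90 min per day, at 10 am, from 2 months before the start. Model mice received azoxymethane (AOM), a colon carcinogen, once at 10 mg/kg into the peritoneum, followed by 3 cycles of dextran sulfate sodium (DSS), which injures and inflames the colon lining, at 2% in the drinking water for 7 days. Model_Swim mice received the same AOM/DSS course and the same swimming as Ctrl_Swim mice. Mice that were not trained stood in the same container in water of another depth and temperature, so exercise and the conditions of the water cannot be told apart. Each mouse is called by its group and number, from 1 to 3, or from 2 to 4 in Ctrl_Swim.

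Total counts ranged from 17256953 to 19451055 per mouse, and where a gene has a count of 0, up to 3 counts remain possible, which correspond to between 0.154 and 0.174 CPM (counts scaled to library size). These limits cover counting error only, and p-values measure the spread between these mice. The edgeR fit takes 1 spread per gene from all 4 groups. The Model mice differed most from each other, with a chi-square of the counts per gene of 79.6 to 119 for pairs of mice. Pairs within the other groups had 7.69 to 23.1. Mice outside a comparison thus also enter its p-values. Libraries differed in marker genes of other tissues. The summed level of 19 genes of pancreatic acinar cells was 51750 CPM in Model 1 and 25190 CPM in Model 3, against 99.8 to 452 CPM in the other 10 mice. The summed level of 16 genes of squamous epithelium was 14.3 to 21.6 CPM in Ctrl, ranged from 10.3 to 895 in Ctrl_Swim, from 34.0 to 2065 in Model and from 176 to 1148 in Model_Swim, with the highest values in Model 2, Model_Swim 2, Model 1, Model_Swim 3 and Ctrl_Swim 4. The 11 genes of mature colonocytes, which mark the labelled tissue, were detected in every group, at summed levels of 10130 to 10980 CPM in Ctrl, from 8940 to 13230 in Ctrl_Swim, from 9816 to 10490 in Model_Swim and at 3105, 4421 and 8245 in Model 1, 2 and 3. In whole tissue, fewer cells of a type and less RNA per cell cannot be told apart.

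Sphingolipids are built on a sphingoid base. Serine palmitoyltransferase starts their synthesis, and ceramide synthases and desaturases turn the base into ceramide, from which sphingomyelin, glycosphingolipids and ceramide 1-phosphate are made. Ceramidases release sphingosine, which kinases phosphorylate to sphingosine 1-phosphate, a signal that lymphocytes and vessels read through dedicated receptors. Gangliosides are glycosphingolipids that carry sialic acid, and the simplest of the main series, GM3, is made from lactosylceramide by the product of St3gal5. In the gut, sphingomyelin and glycolipids are major lipids of the brush border.

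St3gal5, GM3 synthase, lies on chr6:72097552-72154571 (GRCm38.p6). It is the gene by which the set was selected, and the bases before its start are shown because it had the largest difference of the set in Model. The letters are those of the RefSeq promoter table for GRCm38.p6, which held 45 promoters of 30 of the 33 genes. The window on the plus strand, chr6:72097358-72097551, ends before the annotated gene. Degs2, the dihydroceramide desaturase described below, is shown beside it as the gene with the largest decrease among those tested between Model and Ctrl. Its window is on the minus strand, chr12:108702316-108702556. Capitals mark the motifs found on either strand, and a motif of the other strand appears as its reverse complement.
St3gal5: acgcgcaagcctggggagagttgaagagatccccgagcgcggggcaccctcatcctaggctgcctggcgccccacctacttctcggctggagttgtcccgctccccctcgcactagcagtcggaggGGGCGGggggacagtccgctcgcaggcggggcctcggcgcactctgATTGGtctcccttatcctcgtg
Degs2: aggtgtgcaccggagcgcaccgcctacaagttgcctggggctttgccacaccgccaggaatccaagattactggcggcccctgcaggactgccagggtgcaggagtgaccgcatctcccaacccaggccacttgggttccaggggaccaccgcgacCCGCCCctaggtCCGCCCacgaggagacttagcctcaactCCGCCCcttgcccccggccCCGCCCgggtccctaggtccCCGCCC

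The motifs were searched on both strands of the 250 bases before the RefSeq start, including bases that are not printed, the last 56 of the St3gal5 window, which lie in the gene, and the last 9 of the Degs2 window, which lie before the RefSeq gene but in an exon of GENCODE, a fuller annotation. The St3gal5 window held 2 GC boxes (GGGCGG), 1 of them in the part not printed, and 1 inverted CCAAT box, and the Degs2 window held 5 GC boxes. A GC box is present in 32.7% and a CCAAT box in 33.8% of 32851 promoters of the same length. The E-box CACGTG (6.02% of promoters), the D-box TTATGTAA (0.819%) and the nuclear receptor half-site AGGTCA (14% of promoters), which are read by clock factors among others, were not among the letters of either window.

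St3gal5 was at 21.1, 23.2 and 22.3 CPM in Ctrl, at 39.6, 19.0 and 24.5 in Ctrl_Swim, at 3.43, 4.19 and 3.96 in Model, and at 17.9, 18.9 and 21.7 in Model_Swim. All Model mice lay below every mouse of the other groups, and Model_Swim mice overlapped with Ctrl_Swim mice. The Model mean was 17.4% and the Model_Swim mean 87.9% of the Ctrl mean. The fitted log2 fold change was -2.52 between Model and Ctrl, 2.34 between Model_Swim and Model, and -0.51 between Model_Swim and Ctrl_Swim, all given without a test because these comparisons share mice with the one that selected the gene. Ctrl_Swim against Ctrl shares none, and there the log2 fold change was 0.32 ± 0.21 (SE, n = 3 mice per group) with an adjusted p of 0.453 (edgeR), which did not pass, and without Ctrl_Swim 2, the highest mouse, the value was -0.0079. In length-scaled units (FPKM, fragments scaled to transcript length and library size) St3gal5 ranged from 1.27 to 14.1 over the 12 mice and was the 24th of the 33 genes by its mean of 6.64.

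Genes of the circadian clock moved across the same mice, and their part in the St3gal5 values was not tested. The hour at which each mouse was killed is not given in the sources used here, so hour and group cannot be told apart. Dbp, a clock output factor, was at 64.3 ± 5.58 CPM (SD, n = 3) in Ctrl, at 110 ± 13.1 in Ctrl_Swim, at 13.2 ± 7.21 in Model and at 63.4 ± 6.58 in Model_Swim. Nr1d1, a clock repressor, was at 141 ± 13.6, 140 ± 12.4, 59.3 ± 16.1 and 171 ± 5.91 CPM in the same order of groups. Per3, a period gene, was at 37.7 ± 1.64, 74.0 ± 2.98, 24.2 ± 5.52 and 50.7 ± 4.64 CPM. Arntl, a clock activator, was at 20.4 ± 4.74, 9.72 ± 1.73, 51.3 ± 9.41 and 19.2 ± 0.763 CPM, the highest mice being those of Model. Between Ctrl and Ctrl_Swim, Dbp and Per3 (higher in Ctrl_Swim) and Arntl (lower) did not overlap, while Nr1d1 and St3gal5 did.

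**Figure D1:**
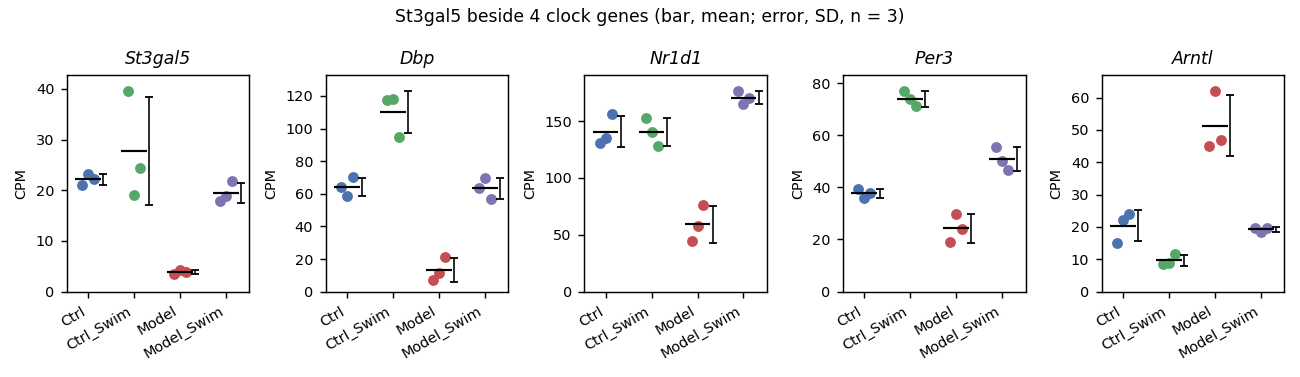
CPM per mouse (y axis, linear from 0) of St3gal5 and 4 clock genes in the 4 groups (x axis). Points are mice, bars are means and error bars are SD (n = 3). St3gal5, Dbp, Nr1d1 and Per3 were lowest and Arntl highest in Model, and the St3gal5 mice of Ctrl_Swim spread from 19.0 to 39.6 CPM.

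Between Model and Ctrl, St3gal5 aside, few genes of the set changed and none passed at more than 2-fold. Of 31 tested, 3 rose (Cerk, B4galt6 and Degs1) and 3 fell (Degs2, Sphk2 and Sptssa) at an adjusted p under 0.05 in edgeR. That is 19.4% of the 31, against 32.7% of all 15484 genes tested (16.5% higher and 16.2% lower). With the study's cutoffs, which also require a change over 2-fold, 0 of 31 passed, against 7.43% of all genes. At an unadjusted p under 0.05 the count was 8 (25.8%), against 45.2% of all genes. DESeq2 called 7 at an adjusted p under 0.05. For the tests other than edgeR, no share over all genes is given here or below. The mice of both groups did not overlap for 11 of the 31 genes, against 44.2% of all genes. The median log2 fold change of the 31 was -0.03, and the median absolute change was 0.14 against 0.28 over all genes. The share and the median absolute change of the set lay below those of all genes, a difference that was not tested.

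**Figure D2:**
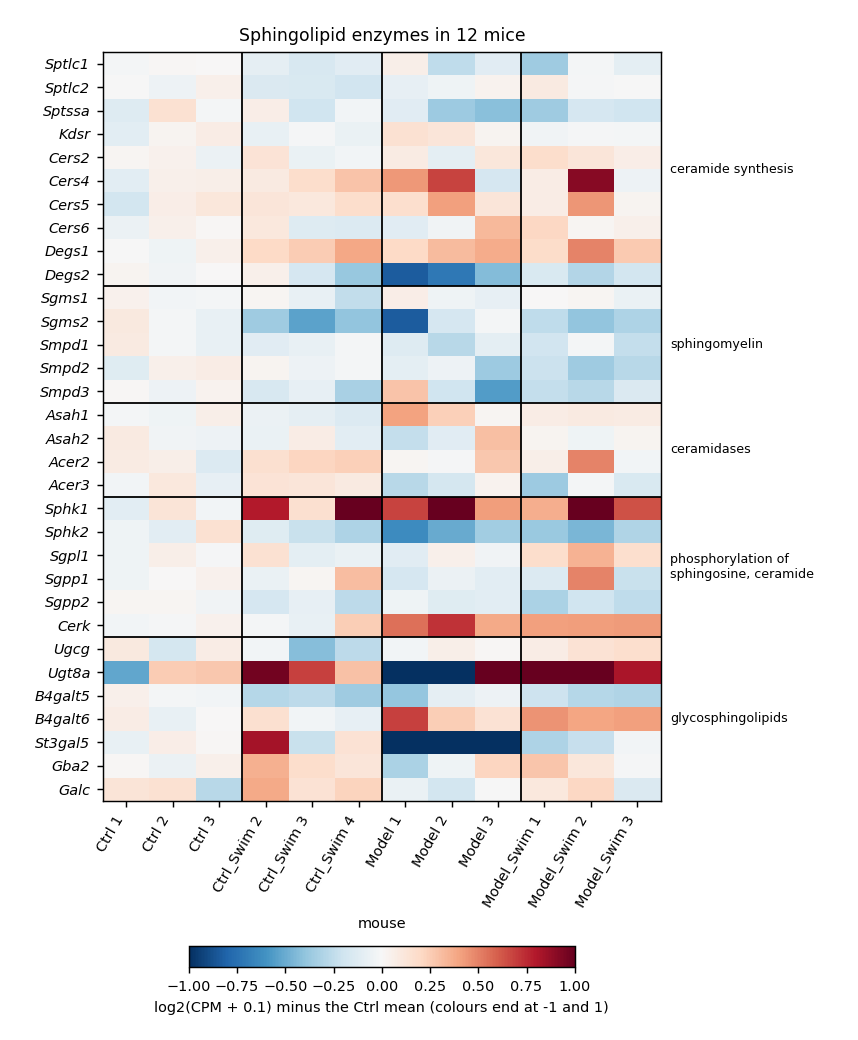
Levels of the 32 genes that passed the filter (rows, by role) in the 12 mice (columns), as log2(CPM + 0.1) minus the mean of Ctrl. Blue is lower and red higher than Ctrl, and colours end at 1 in either direction. St3gal5 is dark blue in the 3 Model mice, Degs2 and Sphk2 are blue there, and Cerk is red in all 6 AOM/DSS mice.

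Ceramide synthesis held 10 genes, of which 1 rose and 2 fell between Model and Ctrl. The largest decrease was that of Degs2, which desaturates or hydroxylates dihydroceramide and so also makes the phytoceramides of gut and skin. Degs2 (chr12:108686792-108702306) was at 193, 185 and 190 CPM in Ctrl, at 196, 169 and 145 in Ctrl_Swim, at 106, 115 and 140 in Model, and at 170, 155 and 167 in Model_Swim. The Model mice lay below the 9 others. From Ctrl to Model the log2 change was -0.65 ± 0.12 (SE), with an adjusted p of 0.0026 (edgeR), and it passed in all 22 alternatives. Among the Model mice the colonocyte level, like that of Degs2, was lowest in Model 1 and highest in Model 3. Of the 11 colonocyte genes 3 fell and 1 rose, and their part in this result was not tested. Exons of Degs2 share 278 bases (13%) with Evl on the opposite strand, and whether the counting used strand is not given in the sources used here.

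Its paralog Degs1, the desaturase found in most tissues, moved the other way. Degs1 was at 44.6, 43.5 and 46.4 CPM in Ctrl and 51.5, 55.9 and 57.9 CPM in Model, with no overlap. It rose by 0.30 ± 0.09 on the log2 scale (adjusted p = 0.0231, edgeR). The call was lost without Ctrl 1 (adjusted p = 0.0527), without Ctrl 2 (0.0661), without Model 2 (0.0522), and with the acinar level (log2 change 0.34, adjusted p = 0.0742) or the squamous level (0.26, adjusted p = 0.121) as a covariate. The change itself stayed between 0.26 and 0.34 in these edgeR fits. Degs1 was at 51.5, 53.5 and 58.6 CPM in Ctrl_Swim and 50.8, 63.2 and 53.8 CPM in Model_Swim, so that the Ctrl mice were the lowest of the 12. On the FPKM scale, Degs2 made up 71.6% ± 0.597 (SD, n = 3) of the sum of both desaturases in Ctrl, 64.8% ± 4.88 in Ctrl_Swim, 56.5% ± 2.26 in Model and 63.7% ± 3.80 in Model_Swim. The Model and Ctrl shares did not overlap (exact permutation test, two-sided, p = 0.1, the smallest that 3 mice against 3 allow).

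Sptssa, a small subunit of serine palmitoyltransferase, was at 63.0, 76.4 and 67.7 CPM in Ctrl and 63.6, 53.5 and 51.6 CPM in Model. Model 1 lay within the Ctrl mice. The log2 fold change of -0.30 ± 0.10 had an adjusted p of 0.0479 (edgeR), next to the threshold, and the call was lost in 19 of 22 alternatives. Among the fits that left out 1 mouse, it was kept only without Model 1, and without Ctrl 2 the value was -0.20 (adjusted p = 0.228). The catalytic subunits of the set, Sptlc1 and Sptlc2, had log2 fold changes of -0.10 and -0.03, and did not pass. Outside the set are the subunits Sptlc3 and Sptssb, named here after their values were seen. Sptlc3 had 5.49 ± 2.54 (adjusted p = 0.116, edgeR), at 0, 0.054 and 0 CPM in Ctrl and 1.39, 1.96 and 0 in Model. Sptssb had -0.47 ± 0.36 (adjusted p = 0.337, edgeR), at 112, 127 and 120 CPM in Ctrl and 63.8, 39.5 and 156 in Model.

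The 4 ceramide synthases of the set, which differ in the chain length they attach, did not pass between Model and Ctrl. Cers2, which makes very-long-chain ceramides, had the highest mean FPKM of the 33 genes over the 12 mice, at 50.8 (range 44.4 to 55.8), and its log2 fold change was 0.04. In Ctrl alone it was the 4th. On the FPKM scale it made up 61.5% ± 2.37 of the 4 ceramide synthases of the set in Ctrl and 58.3% ± 4.27 in Model. Cers4 ranged from 47.2 CPM in Model 3 to 85.1 CPM in Model 2 and 100 CPM in Model_Swim 2, against 49.4 to 55.3 CPM in Ctrl. Model 2 and Model_Swim 2 had the highest squamous levels of their groups and Model 3 the lowest of Model, while Model_Swim 3, with a squamous level of 1083 CPM, had Cers4 at 51.4 CPM, and the part of squamous epithelium in Cers4 was not tested. Cers5 did not overlap between Model (35.6, 42.0 and 34.4 CPM) and Ctrl (27.9, 33.2 and 34.2 CPM), with a log2 fold change of 0.23 and an adjusted p of 0.155 (edgeR). Cers6 and Kdsr, the reductase of the 3-keto base, had log2 fold changes of 0.07 and 0.10.

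The sphingomyelin branch showed no passing gene in its 5 tested members, and all 5 log2 fold changes between Model and Ctrl were below 0, from -0.30 to -0.02. Sgms1, the Golgi sphingomyelin synthase, lay between 35.3 and 43.8 CPM in all 12 mice. Sgms2, the synthase of the plasma membrane, was at 89.6, 82.9 and 79.7 CPM in Ctrl and 47.0, 74.7 and 82.6 CPM in Model. Model 1 was the lowest of the 12 mice, while Model 3 lay within Ctrl. The acinar level was highest in Model 1 (51750 CPM) and next in Model 3 (25190 CPM), and its part in Sgms2 was not tested. Sgms2 passed between Model and Ctrl when Model 3 was left out, together with Asah1 and Ugt8a. Smpd1, the acid sphingomyelinase of lysosomes, was lower in every Model mouse (32.0 to 36.3 CPM) than in every Ctrl mouse (36.9 to 41.4 CPM), with a log2 fold change of -0.17 and an adjusted p of 0.114 (edgeR).

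Among the neutral sphingomyelinases, Smpd2 had a log2 fold change of -0.17 and Smpd3 of -0.12. Smpd3 spread widely in Model, at 234, 166 and 130 CPM, around the Ctrl mice at 193, 185 and 196 CPM. Enpp7, the alkaline sphingomyelinase of the intestine, had 1 count in Ctrl 1 and in Ctrl 2 and 0 in the other 10 mice. That is below the limit of 3 counts, so any difference between groups was not detectable at this depth.

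None of the 4 ceramidases passed between Model and Ctrl by edgeR. Asah1, the acid ceramidase of lysosomes, had the highest FPKM of the 4, with a mean of 36.7 over the 12 mice. It was at 158, 156 and 167 CPM in Ctrl and 212, 189 and 163 CPM in Model, with a log2 fold change of 0.23 ± 0.08 and an adjusted p of 0.0555 (edgeR). Model 3 lay within Ctrl, so the groups overlapped. DESeq2 and the 3 limma fits on FPKM called the gene. Asah2, the neutral ceramidase of the brush border, had a log2 fold change of -0.0012, and the alkaline ceramidases Acer2 and Acer3 had 0.10 and -0.14.

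Among the 6 tested genes that phosphorylate or dephosphorylate sphingosine and ceramide or cleave sphingosine 1-phosphate, 1 rose and 1 fell. Cerk, ceramide kinase (chr15:86139101-86186259), was at 36.1, 36.6 and 37.9 CPM in Ctrl, at 36.3, 34.9 and 43.8 in Ctrl_Swim, at 53.9, 61.0 and 48.0 in Model, and at 49.0, 49.4 and 49.6 in Model_Swim. The 6 AOM/DSS mice were the highest of the 12. From Ctrl to Model its log2 change was 0.56 ± 0.10, with an adjusted p of 0.0024 (edgeR), and the gene passed in all 22 alternatives. With the squamous level as a covariate the value was 0.37 (adjusted p = 0.0164).

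Sphk2, the sphingosine kinase of nucleus and mitochondria (chr7:45709463-45718002), was at 86.8, 83.2 and 99.4 CPM in Ctrl, at 82.1, 76.7 and 72.4 in Ctrl_Swim, at 58.0, 63.2 and 70.3 in Model, and at 69.0, 65.1 and 72.6 in Model_Swim. Ctrl mice were the highest and did not overlap with any other group. Its log2 fold change in Model was -0.49 ± 0.09, with an adjusted p of 0.0031 (edgeR), and it passed in all 22 alternatives. Exons of Sphk2 share 539 bases (13%) with Dbp and 373 bases (8.97%) with Rpl18, both on the opposite strand. If strand was not used in counting, reads of the shared bases cannot be told apart. Dbp was at 63.9, 58.8 and 70.0 CPM in Ctrl and 6.97, 11.6 and 21.1 CPM in Model, and its part in the Sphk2 values was not tested. In Ctrl_Swim, Dbp was higher than in Ctrl (118, 118 and 95.1 CPM) while Sphk2 was lower.

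Sphk1, the cytosolic sphingosine kinase, was low, with 35 to 106 counts per mouse. It was at 1.93, 2.29 and 2.03 CPM in Ctrl, at 3.67, 2.34 and 4.39 in Ctrl_Swim, at 3.38, 4.85 and 2.81 in Model, and at 2.70, 5.76 and 3.29 in Model_Swim. All 9 other mice lay above the 3 Ctrl mice. The log2 fold change of 0.82 ± 0.34 between Model and Ctrl was the largest of the 31 but did not pass (adjusted p = 0.0839, edgeR), and it passed with the replicate block and with the acinar covariate. The highest mouse in each of Ctrl_Swim, Model and Model_Swim was also the one with the highest squamous level there, and the part of squamous epithelium was not tested. On the FPKM scale, Sphk1 made up 2.19% ± 0.336 of the sum of both kinases in Ctrl and 5.27% ± 1.58 in Model (exact permutation test, two-sided, p = 0.1).

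The 3 enzymes of the set that remove sphingosine 1-phosphate did not pass. Sgpl1, the lyase that breaks it down for good, had a log2 fold change of -0.03 between Model and Ctrl. Sgpp1 and Sgpp2, its phosphatases, had -0.11 and -0.09. The mice of both groups did not overlap for either phosphatase, with adjusted p of 0.631 and 0.278 (edgeR). Sgpp2 was the more abundant, at 75.9% ± 0.93 of the FPKM of both in Ctrl, and Sgpp1 was highest in Model_Swim 2 (73.8 CPM) and Ctrl_Swim 4 (64.7 CPM).

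**Figure D3:**
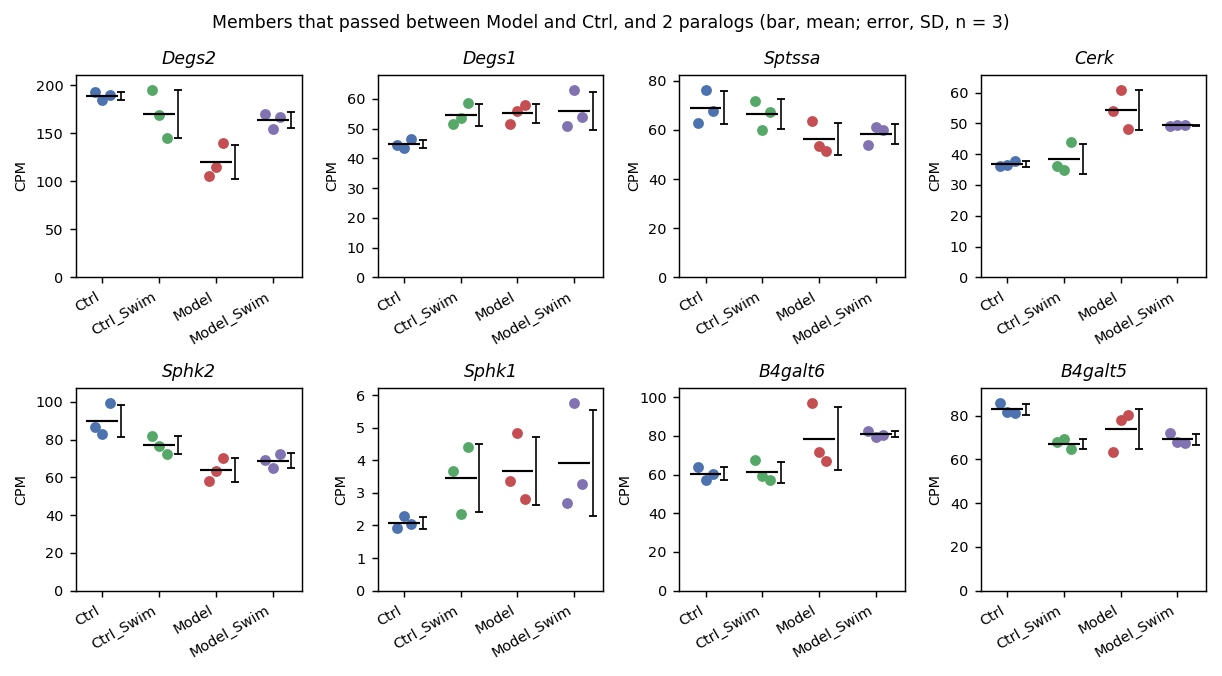
CPM per mouse (y axis, linear from 0) of the 6 genes that passed between Model and Ctrl and of the paralogs Sphk1 and B4galt5. Points are mice, bars are means and error bars are SD (n = 3). Degs2 and Sphk2 were lower and Cerk and Degs1 higher in every Model mouse than in every Ctrl mouse, while Sptssa overlapped.

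Among the glycosphingolipid enzymes other than St3gal5, 1 of 6 passed between Model and Ctrl. Ugcg, glucosylceramide synthase, opens the branch and had the highest FPKM of the 7, with a mean of 27.1 over the 12 mice. Its log2 fold change was 0.0078. B4galt5 and B4galt6 encode lactosylceramide synthases, which make the substrate of GM3 synthase. B4galt6 was at 63.8, 57.3 and 60.5 CPM in Ctrl, at 67.5, 59.3 and 57.1 in Ctrl_Swim, at 97.1, 71.8 and 66.9 in Model, and at 82.6, 79.4 and 80.5 in Model_Swim. The Model mice lay above the Ctrl mice, Model 1 by the most. B4galt6 rose by 0.38 ± 0.12 on the log2 scale (adjusted p = 0.0356, edgeR). The call was lost in 7 of 22 alternatives. Without Model 1 the value was 0.21 (adjusted p = 0.0649), without Ctrl 1, 2 or 3 the adjusted p was 0.0557, 0.104 and 0.0815, in a fit of the 2 groups alone it was 0.102, and with the acinar or the squamous level as a covariate it was 0.344 (log2 0.23) and 0.208 (log2 0.29).

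B4galt5 was at 85.8, 81.7 and 81.3 CPM in Ctrl and 63.4, 77.9 and 80.1 CPM in Model, with no overlap and a log2 fold change of -0.17 that did not pass (adjusted p = 0.13, edgeR). On the FPKM scale, B4galt6 made up 34.6% ± 0.762 of the sum of both lactosylceramide synthases in Ctrl, 39.7% ± 1.88 in Ctrl_Swim, 43.4% ± 8.01 in Model and 45.9% ± 0.46 in Model_Swim. The shares of Model and Ctrl, of Ctrl_Swim and Ctrl, and of Model_Swim and Ctrl_Swim did not overlap (exact permutation tests, two-sided, p = 0.1 each, the smallest possible). With 13 shares compared in 3 pairs of groups and no p under 0.1, no adjusted p could fall lower. The first and second of these comparisons share the Ctrl mice, and the last of them shares the Ctrl_Swim mice with the second.

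Ugt8a, galactosylceramide synthase, was at 1.32, 2.34 and 2.36 CPM in Ctrl and 0, 0.545 and 4.42 CPM in Model, where the 0 of Model 1 allows a level of up to 0.163 CPM. Its Model mice thus spread from below to above all Ctrl mice, and the fitted log2 fold change of -0.29 ± 0.94 did not pass (adjusted p = 0.834, edgeR). Gba2, the glucosylceramidase outside lysosomes, and Galc, the lysosomal galactosylceramidase, had log2 fold changes of -0.03 and -0.10 and did not pass.

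In mice that were not given AOM/DSS, no gene of the set passed between swimmers and non-swimmers. In Ctrl_Swim against Ctrl, 0 of 32 genes passed by edgeR, against 0.969% of all genes. The spread in that fit also came from the AOM/DSS mice, so the 0 does not show that swimming had no effect. At an unadjusted p under 0.05 there were 7 (21.9%), against 17.6% of all genes. DESeq2 called 1 (B4galt5), and limma on FPKM called 0, both given without a share over all genes. The mice did not overlap for 14 of the 32 genes, against 27.4% of all genes. Of these 14, Sptlc1, Sptlc2, Sgms2, Smpd3, Asah1, Sphk2, Sgpp2 and B4galt5 had lower values in Ctrl_Swim, and Cers4, Degs1, Acer2, Sphk1, Ugt8a and Gba2 had higher values. The summed level of 9 marker genes of goblet cells, the mucus cells of the colon, was 40870 to 52140 CPM in Ctrl and 14560 to 19050 CPM in Ctrl_Swim. A sum does not show how many of the 9 differed, and their part in these values was not tested.

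B4galt5 had the smallest p among them. It was at 67.8, 69.1 and 64.7 CPM in Ctrl_Swim, below the Ctrl mice, with a log2 fold change of -0.30 ± 0.08 and an adjusted p of 0.115 (edgeR). Sgms2 was at 65.7, 57.9 and 64.0 CPM in Ctrl_Swim, also below the Ctrl mice, with -0.43 ± 0.16 and an adjusted p of 0.216 (edgeR). Both genes passed in a fit of the 2 groups alone and when Model 1 was left out of the common fit. Degs1 was higher in every Ctrl_Swim mouse than in every Ctrl mouse, with 0.28 ± 0.09 and an adjusted p of 0.147 (edgeR). On the FPKM scale, the share of Sgms2 in both sphingomyelin synthases was 63.0% ± 0.87 in Ctrl and 57.6% ± 2.74 in Ctrl_Swim, without overlap.

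The AOM/DSS response was also measured among mice that swam. In Model_Swim against Ctrl_Swim, 0 of 31 genes passed by edgeR, against 5.18% of all genes. At an unadjusted p under 0.05 there were 7 (22.6%), against 22.4% of all genes. DESeq2 called 4 (B4galt6, Cerk, Sptlc2 and Ugcg). Limma on log2(FPKM + 1) called 1 (Ugcg). The share over all genes by these other tests is not given, so their counts cannot be set against 5.18%. The mice did not overlap for 8 of the 31 genes, against 32.4% of all genes, with higher values in Model_Swim for Sptlc2, Asah1, Sgpl1, Cerk, Ugcg and B4galt6 and lower values for Smpd2 and Acer3.

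Cerk came closest to the threshold, with a log2 fold change of 0.36 ± 0.10 and an adjusted p of 0.0572 (edgeR), and it passed with the acinar or the squamous level as a covariate. Ugcg was at 110, 83.8 and 93.5 CPM in Ctrl_Swim and 118, 124 and 126 CPM in Model_Swim, with 0.36 ± 0.10 and an adjusted p of 0.0627 (edgeR). In Ctrl it was at 120, 99.5 and 119 CPM and in Model at 110, 117 and 113 CPM, so that Ctrl_Swim 3 and 4 were the lowest of the 12 mice. B4galt6 had 0.40 ± 0.12 with an adjusted p of 0.0834 (edgeR), beside 0.38 between Model and Ctrl. Degs2 and Sphk2, which fell between Model and Ctrl, had -0.05 ± 0.12 and -0.16 ± 0.09 among swimmers. Whether the AOM/DSS response of a gene differed with swimming was not tested, since that difference holds the comparison that selected the set.

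**Figure D4:**
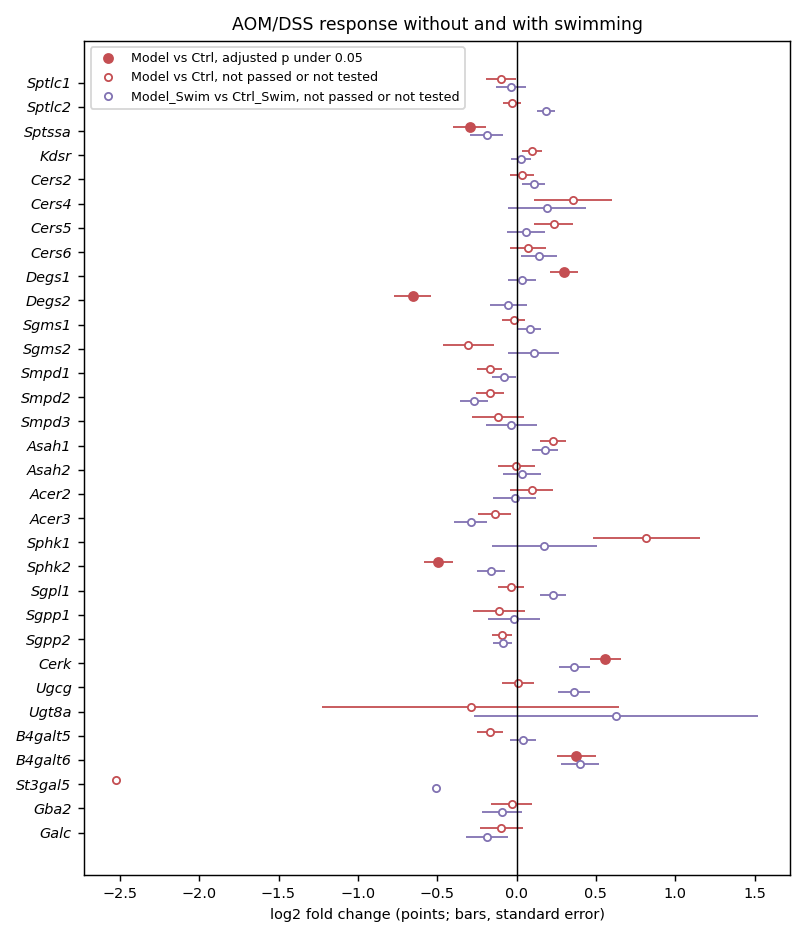
Log2 fold change (x axis) of the 32 tested genes (y axis) for Model against Ctrl (red) and Model_Swim against Ctrl_Swim (purple). Bars are standard errors, filled points had an adjusted p under 0.05, and St3gal5, which has no bar, was not tested in these comparisons. St3gal5 stands at -2.52 for Model and -0.51 for Model_Swim, and the filled points are Sptssa, Degs1, Degs2, Sphk2, Cerk and B4galt6.

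Between Model_Swim and Model, the comparison that selected the set, the values are a description. St3gal5 had a log2 fold change of 2.34. Ugt8a had a fitted 1.57, but Model 1 was at a count of 0 and the Model_Swim mice, at 6.93, 4.24 and 3.50 CPM, overlapped with Model 3 at 4.42 CPM. The other 30 genes lay between -0.17 (Sgpp2) and 0.45 (Degs2), with 19 above 0 and 11 below, a median of 0.02 and a median absolute value of 0.09, against 0.14 over all genes. Sgpl1 had 0.26, its Model_Swim mice at 164, 186 and 164 CPM lying above its Model mice at 135, 151 and 142 CPM.

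Levels per length set the scale of these changes. By mean FPKM over the 12 mice, Cers2 (50.8), Sptssa (45.8), Sgpp2 (45.4), Degs2 (44.8), Asah1 (36.7) and Sgpl1 (35.2) were the most abundant, and Sphk1 (0.763), Ugt8a (0.755) and Enpp7 (0.0041) the least. The ranges of the highest 4 over the mice overlap, and in Ctrl alone the order of their means was Degs2 (49.9), Sptssa (47.8), Sgpp2 (46.7) and Cers2 (46.4). In the glycosphingolipid branch the order was Ugcg (27.1), B4galt5 (17.4), B4galt6 (12.1), St3gal5 (6.64), Gba2 (6.47), Galc (2.87) and Ugt8a (0.755), where St3gal5 and Gba2 overlap over the mice. In the Model mice alone the mean of St3gal5 was 1.44, below Gba2 (6.09) and Galc (2.64) and above only Ugt8a (0.431) in the branch.

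The other genes of the pathway were read beside the set, from a list of receptors, transporters, regulators and further enzymes. From a list of 51 symbols, 48 were in the table and all 48 were tested. Between Model and Ctrl 19 of the 48 (39.6%) passed by edgeR, 10 higher and 9 lower, against 32.7% of all genes, and 3 passed the 2-fold cutoff. Their median absolute log2 fold change was 0.36, against 0.28 over all genes. In Ctrl_Swim against Ctrl 0 of 48 passed by edgeR, against 0.969% of all genes. At an unadjusted p under 0.05 there were 9 (18.8%), against 17.6% of all genes. DESeq2 called 1 (S1pr3) and limma 0. In Model_Swim against Ctrl_Swim 2 passed (4.17%, against 5.18% of all genes) by edgeR and 6 by DESeq2, for which no share is given. The former were Samd8, a ceramide phosphoethanolamine synthase, which was higher by 0.45 on the log2 scale, and Acer1, which was lower.

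Of the 5 receptors of sphingosine 1-phosphate, 4 rose between Model and Ctrl and S1pr5 did not pass, where 16.5% of all genes were called higher, and the receptors were not tested as a group. S1pr1, the receptor by which lymphocytes leave lymphoid tissue, was at 14.5, 10.5 and 13.4 CPM in Ctrl, at 14.1, 16.2 and 26.1 in Ctrl_Swim, at 21.0, 21.2 and 24.9 in Model and at 17.4, 14.9 and 15.8 in Model_Swim, with a log2 fold change of 0.81 ± 0.21 (adjusted p = 0.0134, edgeR). S1pr2 rose by 0.89 ± 0.17 (adjusted p = 0.0036, edgeR) and passed in all 22 alternatives. S1pr4, a receptor of lymphoid and myeloid cells, rose by 1.54 ± 0.44 (adjusted p = 0.0219, edgeR) from a mean of 0.97 CPM to 2.84 CPM. S1pr3 (0.78) and the exporter Spns2 (0.59) also passed and are named here after their values were seen. S1pr5 was at or under 1.25 CPM in all mice and did not pass (adjusted p = 0.129, edgeR).

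Without Ctrl 2 the adjusted p was 0.0559 for S1pr1 and 0.0801 for S1pr4, and without Ctrl 3 it was 0.0744 for S1pr4. With the acinar or squamous level as a covariate both calls were lost, while the changes stayed near their size and the standard errors grew. S1pr1 then had 0.79 ± 0.30 (adjusted p = 0.08) and 0.72 ± 0.25 (0.0677), and S1pr4 had 1.5 ± 0.62 (0.105) and 1.36 ± 0.51 (0.0884). Immune and stromal marker genes also differed between Model and Ctrl. The 9 B cell genes summed to 37.8 to 76.9 CPM in Ctrl, to 49.9 to 155 in Ctrl_Swim, to 148 to 170 in Model and to 49.1 to 76.3 in Model_Swim, with 8 of 9 higher in Model than in Ctrl. The 8 T cell genes summed to 27.5 to 32.6, 36.9 to 79.9, 61.8 to 94.4 and 52.7 to 64.2 CPM in the same order, with 7 of 8 higher. Ctrl_Swim 4 was the highest Ctrl_Swim mouse for S1pr1, S1pr4 and both lists. The 8 macrophage genes, all higher in Model than in Ctrl, summed to 243 to 266 CPM in Ctrl, to 220 to 275 in Ctrl_Swim, to 394 to 466 in Model and to 376 to 436 in Model_Swim, where S1pr1 was at 14.9 to 17.4 CPM. Of 8 fibroblast genes 7 were higher in Model, with sums of 2152 to 2472 CPM in Ctrl and 3369 to 4044 CPM in Model. Their sums were 2014 to 2351 CPM in Ctrl_Swim and 2972 to 3662 CPM in Model_Swim. Of 8 neutrophil genes 6 were higher in Model, with sums of 11.2 to 22.6 CPM in Ctrl and 22.4 to 128 CPM in Model, which overlap. The neutrophil sums were 15.55 to 19.04 CPM in Ctrl_Swim and 34.4 to 168 CPM in Model_Swim. The part of these cells in the receptor values was not tested.

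Genes next to St3gal5 in the ganglioside series moved apart. St8sia1, GD3 synthase, which adds a further sialic acid to GM3, was at 1.88, 1.04 and 1.65 CPM in Ctrl and 4.45, 3.54 and 4.19 CPM in Model, and rose by 1.41 ± 0.39 (adjusted p = 0.0197, edgeR). B4galnt1, GM2 synthase, which extends GM3 the other way, was at 195, 242 and 229 CPM in Ctrl and 89.0, 92.3 and 202 CPM in Model, and fell by 0.80 on the log2 scale (SE 0.26, adjusted p = 0.0357, edgeR), with Model 3 within Ctrl. Without Model 3 the log2 change of B4galnt1 was -1.28 (adjusted p = 4.41e-05, edgeR). St8sia1 lost its call without Ctrl 2 (log2 change 1.22, adjusted p = 0.0777), without Ctrl 3 (1.5, 0.0524) and with the acinar (1.22, 0.129) or squamous (1.29, 0.0804) covariate. B4galnt1 lost its call without Ctrl 1, 2 or 3 (0.0533, 0.103 and 0.0888), without Model 1 or 2 (0.0965 and 0.117), in a fit of the 2 groups alone (0.106, log2 change -0.79) and with either covariate. Its log2 change was -1.13 with the acinar covariate (adjusted p = 0.065) and -0.47 with the squamous covariate (adjusted p = 0.193). Exons of B4galnt1 share 715 bases (29.9%) with Slc26a10 on the opposite strand.

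**Figure D5:**
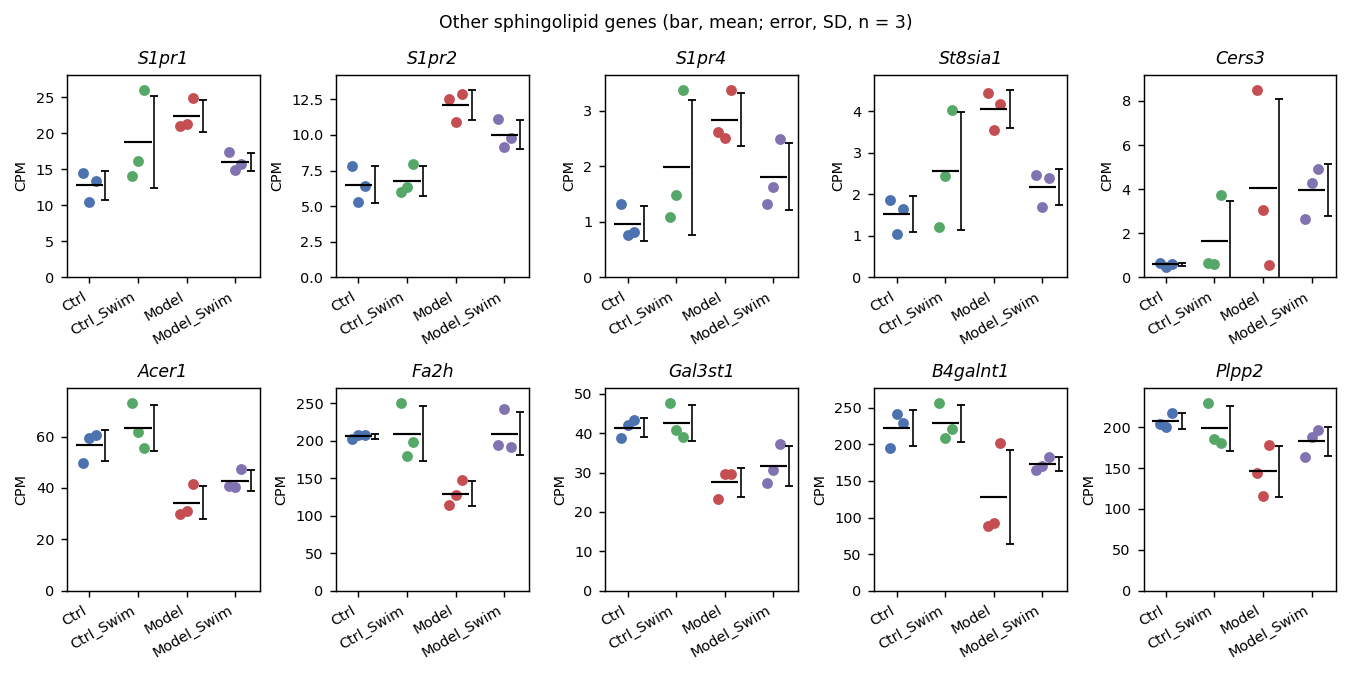
CPM per mouse (y axis, linear from 0) of the 10 further sphingolipid genes with the largest passing changes between Model and Ctrl. Points are mice, bars are means and error bars are SD (n = 3). S1pr1, S1pr2, S1pr4 and St8sia1 were higher and Acer1, Fa2h, Gal3st1 and Plpp2 lower in every Model mouse than in every Ctrl mouse, while Cers3 and B4galnt1 overlapped in Model 3.

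Fa2h, Gal3st1, Acer1 and Plpp2 fell between Model and Ctrl. Fa2h, which hydroxylates the fatty acid of ceramides, was at 202, 207 and 207 CPM in Ctrl, at 250, 179 and 199 in Ctrl_Swim, at 114, 127 and 148 in Model and at 195, 242 and 192 in Model_Swim, with a log2 fold change of -0.67 ± 0.14 between Model and Ctrl (adjusted p = 0.0047, edgeR). Gal3st1, which sulfates galactosylceramide, had -0.59 ± 0.13 (adjusted p = 0.0069, edgeR). Acer1, an alkaline ceramidase, had -0.73 ± 0.14 (adjusted p = 0.0041, edgeR) between Model and Ctrl and -0.57 ± 0.14 (adjusted p = 0.0445, edgeR) between Model_Swim and Ctrl_Swim. Plpp2, a lipid phosphate phosphatase, had -0.50 ± 0.14 (adjusted p = 0.022, edgeR). With the acinar covariate Fa2h (log2 change -0.61, adjusted p = 0.0616) and Gal3st1 (-0.44, 0.111) lost their calls, and Plpp2 kept it at -0.77 (0.0236). Plpp2 lost its call without Ctrl 1, 2 or 3 (0.0548, 0.0509 and 0.0748), without Model 2 (0.0685), in a fit of the 2 groups alone (0.0531) and with the squamous covariate (log2 change -0.35, adjusted p = 0.157). Epithelial markers also differed between Model and Ctrl. The colonocyte sum was 10130 to 10980 CPM in Ctrl and 3105 to 8245 CPM in Model, with 3 of 11 genes lower and 1 higher, and the goblet sum was 40870 to 52140 and 14880 to 35400 CPM, with 5 of 9 lower. In Ctrl_Swim and Model_Swim the goblet sum was 14560 to 19050 and 17710 to 32120 CPM. The colonocyte sum there was 8940 to 13230 and 9816 to 10490 CPM. The part of these markers in the decreases was not tested. Plpp3, another lipid phosphate phosphatase, passed in the other direction (log2 change 0.44, adjusted p = 0.0076, edgeR) and is named here after its value was seen.

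Cers3, the ceramide synthase of epidermis, was at 0.662, 0.49 and 0.604 CPM in Ctrl, at 0.657, 0.585 and 3.73 in Ctrl_Swim, at 8.52, 3.05 and 0.574 in Model and at 2.64, 4.29 and 4.93 in Model_Swim. The 5 mice with the highest squamous levels were at 3.05 CPM or above and the other 7 at 2.64 CPM or below. In Model its log2 fold change from Ctrl was 2.78 ± 0.92 (adjusted p = 0.0388, edgeR), which with the squamous level as a covariate was 0.45 (adjusted p = 0.714), and without Model 1 was 1.64 (adjusted p = 0.167). The call was lost in 14 of 22 alternatives, among them each fit without 1 Ctrl or 1 Model_Swim mouse (adjusted p from 0.0501 to 0.114) and the fit without Model 2 (0.0577).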

How the data were processed

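RNA of colon tissue from 12 mice, 3 per group, was sequenced with the TruSeq Stranded mRNA kit on a HiSeq X instrument. For extraction the methods name TRIzol and the labels a mirVana kit. The authors trimmed reads with Trimmomatic, mapped them to GRCm38.p6 with HISAT2, counted them per gene with HTSeq-count, and deposited these raw counts and the FPKM values of Cufflinks. Versions, annotation and strand setting are not given in the sources used here. After division by 1 factor per mouse, FPKM and the share of counts kept 1 ratio per gene (within 1%) in all 15367 genes that had a count in every mouse.

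The count test was run with edgeR 4.0.16 under R 4.3.3 (TMM, filterByExpr with a minimum count of 10, quasi-likelihood test, 4 groups in 1 fit). P-values were adjusted by Benjamini-Hochberg over 15484 genes, and a gene passed at an adjusted p under 0.05. CPM are TMM-scaled. The study used DESeq2, which (version 1.42.0) was an alternative here, as were limma 3.58.1 on log2(FPKM + 1) and log2(FPKM + 0.1) after dropping genes whose mean FPKM was under 0.5, the former also without that filter, DESeq2's size factors, no filter on low counts, the 2 groups alone, a replicate block, the acinar level as a covariate, and each mouse left out. A squamous covariate was chosen after seeing the data. Scripts were tested on simulated counts.

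Genes named with values are St3gal5, those that passed, paralog pairs, genes without overlap, up to 5 other pathway genes per direction with the largest passing changes, and 4 clock genes. Those marked as named after their values were seen are given in addition. The genes of the set and the lists were chosen with earlier results of these data known. Exon overlaps come from GENCODE, and gene positions and promoters from RefSeq, all on GRCm38.p6.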

Additional observations from a re-analysis of the deposited data

How the results depend on the processing

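Between Model and Ctrl, the count of 6 passing genes was 3 to 8 over the 12 fits that each left out 1 mouse, with 3 without Ctrl 1 or without Ctrl 2 and 8 without Model 3. It stayed between 4 and 7 under the 10 other alternatives. Degs2, Sphk2 and Cerk passed in each of the 22 alternatives, Degs1 in 17, B4galt6 in 15 and Sptssa in 3. In Ctrl_Swim against Ctrl the count of 0 became 1 by DESeq2 and 2 in a fit of the 2 groups alone, and was 0 to 2 when 1 mouse was left out (2 without Model 1). In Model_Swim against Ctrl_Swim the count of 0 became 4 by DESeq2, and 1 in a fit of the 2 groups alone, by limma on log2(FPKM + 1) and on log2(FPKM + 0.1), and with the acinar or the squamous covariate. It was 0 to 4 when 1 mouse was left out, with 4 without Model 3 and 1 without Model 1, Model 2, Ctrl_Swim 2 or Ctrl_Swim 4. No share over all genes is given for these alternatives, and the cause of these shifts was not tested. The log2 fold change of St3gal5 in Ctrl_Swim against Ctrl ranged from -0.0079 (without Ctrl_Swim 2) to 0.54 when 1 mouse was left out, and passed in none of the 22 alternatives.

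With the replicate block the counts were 6, 0 and 0 for Model against Ctrl, Ctrl_Swim against Ctrl and Model_Swim against Ctrl_Swim, with Sphk1 gained and Sptssa lost in the first. The median correlation of deviations was 0.0046 over 15 pairs of same-numbered mice (range -0.26 to 0.56). For 39 pairs of different number the median was -0.031 (range -0.557 to 0.451). What the number stands for is not given in the sources used here. These medians cannot show whether same-numbered mice shared more than the number, since single pairs of both kinds lay far from the medians. Scaling by DESeq2's size factors moved the median log2 fold change of all genes from 0.0055 to 0.0145 between Model and Ctrl. Depth limits genes at or near 0 counts in some mice, among them Enpp7, Ugt8a, S1pr5 and Sptlc3. Cers3 had as few as 9 counts.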
